A study of Mus musculus with 2 samples.

Results

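Secretoglobins and drug-metabolising enzymes are the hallmark products of club cells, the secretory cells that line the conducting airways. The 6 genes followed here are the secretoglobins Scgb1a1, Scgb3a1 and Scgb3a2, the cytochrome P450 Cyp2f2, the carbonyl reductase Cbr2 and the flavin mono-oxygenase Fmo2. They were taken by symbol from the 32285 genes listed in both libraries, and each symbol matched 1 gene. Their levels were read in club-like, ciliated-like, AT2-like and non-epithelial cells, with one question throughout: which cells carry a gene at a level of their own, and which carry it only at the level of RNA that is free in the suspension and enters every droplet.

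There were 2 libraries of sorted mouse lung cells, 1 from postnatal day 10 (P10) and 1 from the fetal lung at stage E18.5. Both groups carried a tamoxifen-inducible Cre under the control of Cdh16 (Cdh16CreERT2) and a Cre-dependent tdTomato reporter at the R26 locus, given as heterozygous in the study's design and as tdTomatoflox/flox in the sample labels. Pregnant females received tamoxifen from embryonic day 12.5, either at 0.1 mg per kg by injection or at 0.4 g per kg of diet, and no source used here gives the route for each library. There was no untreated or unlabelled group, and tomato-positive cells were sorted from cells stained for CD326, the product of Epcam, so cells that never expressed Cdh16 under tamoxifen are depleted by design. Nor is the number of pooled animals given, and the labels call both tissues embryonic. The cell type label names alveolar epithelial cells, yet both libraries held airway and non-epithelial cells. Cdh16 itself had 0 UMIs in club-like cells of either age. With 1 library per age no difference between ages has a replicate check, and all intervals are 95% intervals that cover counting error only.

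Scgb1a1 encodes uteroglobin, also called club cell secretory protein, the main secreted protein of club cells. SCGB3A2 is a secretoglobin that appears early when airway cells become secretory, and SCGB3A1 is a secretoglobin of the larger airways. CYP2F2 is the mouse lung enzyme that turns naphthalene into its toxic epoxide, CBR2 reduces carbonyl compounds and is abundant in mouse lung, and FMO2 is the flavin mono-oxygenase of the lung, which oxidises nitrogen and sulphur in foreign compounds. Club cells renew themselves and give rise to ciliated cells, whose master regulator is Foxj1, whereas AT2 cells of the alveolus make surfactant and are defined by surfactant protein C (Sftpc).

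RefSeq promoter entries (build GRCm38.p6) were held for 4 of the 6 genes, and not for Scgb1a1 and Scgb3a2. The 250 bases before the annotated start are shown for the 3 genes with 1 entry each, since these genes differ in their change between ages in club-like cells. They lie at chr11:49663345-49663594 (plus strand), chr7:27119705-27119954 (plus strand) and chr11:120732022-120732271 (minus strand), and are written 5′ to 3′ along the gene with motif matches in capitals.
Scgb3a1: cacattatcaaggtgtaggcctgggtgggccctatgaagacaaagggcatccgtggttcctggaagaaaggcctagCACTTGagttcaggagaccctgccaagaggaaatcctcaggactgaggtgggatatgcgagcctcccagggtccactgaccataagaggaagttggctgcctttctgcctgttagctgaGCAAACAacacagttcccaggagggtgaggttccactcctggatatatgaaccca
Cyp2f2: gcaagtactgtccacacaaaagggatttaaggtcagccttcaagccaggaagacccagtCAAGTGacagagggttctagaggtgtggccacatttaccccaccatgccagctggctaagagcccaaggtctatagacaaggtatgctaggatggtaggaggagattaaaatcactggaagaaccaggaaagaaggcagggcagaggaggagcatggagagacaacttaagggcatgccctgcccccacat
Cbr2: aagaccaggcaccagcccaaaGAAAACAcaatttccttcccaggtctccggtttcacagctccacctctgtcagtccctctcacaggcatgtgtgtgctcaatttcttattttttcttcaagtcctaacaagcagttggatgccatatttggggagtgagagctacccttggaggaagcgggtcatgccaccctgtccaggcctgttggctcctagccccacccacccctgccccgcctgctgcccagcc
The motifs searched on both strands were CAAGTG (core of the NKX2-1 site), TGTTTNC (forkhead), TTGCNNAA (C/EBP) and TATAAA. Scgb3a1 holds CACTTG, the NKX2-1 core on the other strand, from base 77 of the window and GCAAACA, a forkhead match, from base 196. Cyp2f2 holds CAAGTG from base 60. Cbr2 holds GAAAACA, a forkhead match, from base 22. Of the 2 start entries of Fmo2, both hold a C/EBP match and 1 also holds a forkhead match. No match overlaps another. Among 32851 promoters the same window holds the NKX2-1 core in 11.6%, the forkhead motif in 17.8%, the C/EBP motif in 9.56% and TATAAA in 12.4%, so the matches describe the letters only.

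On GRCm38 (mm10, GENCODE vM21) the genes lie apart. Scgb1a1 spans chr19:9083636-9087958 on the minus strand and Scgb3a1 spans chr11:49663610-49665118 on the plus strand. Scgb3a2 spans chr18:43764289-43767399 and Cyp2f2 spans chr7:27119909-27133660, both on the plus strand. Cbr2 spans chr11:120729489-120732114 and Fmo2 spans chr1:162874317-162898726, both on the minus strand. All 6 are protein-coding. The RefSeq starts of Cyp2f2 and Cbr2 lie inside these GENCODE spans, so their windows overlap the spans.

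The P10 library held 14503 barcodes with 171205348 UMIs (unique molecular identifiers, each standing for 1 captured transcript), of which 14086 barcodes were kept as cells (median 10250.5 UMIs and 3149 genes), and the E18.5 library held 12739 barcodes with 137837590 UMIs, of which 12027 were kept (median 8959 UMIs and 2871 genes). The libraries shared 52 barcodes among the kept cells. Club-like cells, named from 18 markers without the 6 genes, were 33 at P10 (0.234% of cells, exact binomial interval 0.161 to 0.329%) and 159 at E18.5 (1.32%, 1.13 to 1.54%). They had a median of 35398 UMIs at P10, above the 10388 UMIs of AT2-like cells there, and of 10906 UMIs at E18.5, against 9504 UMIs in AT2-like cells. Ciliated-like cells numbered 56 and 315, and AT2-like cells 9577 and 2473, at P10 and E18.5. Non-epithelial cells in clusters low in alveolar RNA numbered 1733 and 1554. Low here means that the median AT1 and the median AT2 marker stood under 0.25 of the way from low to highest over clusters. Such clusters still held alveolar RNA, with Sftpc at 34951.5 CPM at P10 and 28668.9 CPM at E18.5. These non-epithelial cells, in leukocyte, endothelial, mesothelial and other mesenchymal clusters, gave the background level. Their mix differed between ages. Leukocytes were 1098 of them at P10 and 465 at E18.5. Fibroblast-like cells, 476 at E18.5, were part of them at that age only. Summed club markers stood at 9414 CPM (summed UMIs of the gene relative to all UMIs of the class, on the usual CPM scale) in P10 club-like cells against 1056 CPM in the non-epithelial cells, and at 7288 against 448 CPM at E18.5. Foxj1 was at 235 and 387 CPM in ciliated-like cells and at 4.34 and 7.61 CPM in club-like cells of P10 and E18.5. Alveolar RNA was unequal between the club-like groups: the 14 AT2 markers summed to 61549 CPM in P10 club-like cells, against 46158 CPM in P10 non-epithelial cells, and to 13055 CPM in E18.5 club-like cells, against 36059 CPM in E18.5 non-epithelial cells. The part of this alveolar RNA and of the unequal depth in the differences between ages was not tested. An E18.5 airway cluster of 57 cells had 8 of the 18 club markers raised but was left unnamed. Its median AT2 marker stood at 0.310 of the way from low to highest. Whether leaving it out lowered the alveolar RNA of E18.5 club-like cells was not tested. The 267 unnamed cells of E18.5 held 56695 Scgb1a1 UMIs, and 50 of them had 10000 CPM or more.

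Club-like cells carried the secretoglobins far above the background, by 231-fold to 459-fold at P10. The 6 genes together made up 30.1% of all UMIs of club-like cells at P10 and 18.7% at E18.5, and 0.227% and 0.108% of those of non-epithelial cells. At 2-fold or more over background, 5 of the 6 genes counted as raised in club-like cells at P10 and 6 of 6 at E18.5, where 5.22% of 10211 measured genes were raised at P10 and 4.97% of 9417 at E18.5. The gene that missed this mark at P10 was Fmo2. Its background differed in make-up between ages, as fibroblast-like cells were in it at E18.5 only. At E18.5 Scgb3a1 passed it on 23 UMIs only, at 2.28-fold with an interval of 1.38 to 3.63 that crosses the line. No Scgb3a1 UMI was found in 150 of those 159 cells. These counts describe a list chosen because club cells are known for it.

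**Figure D1:**
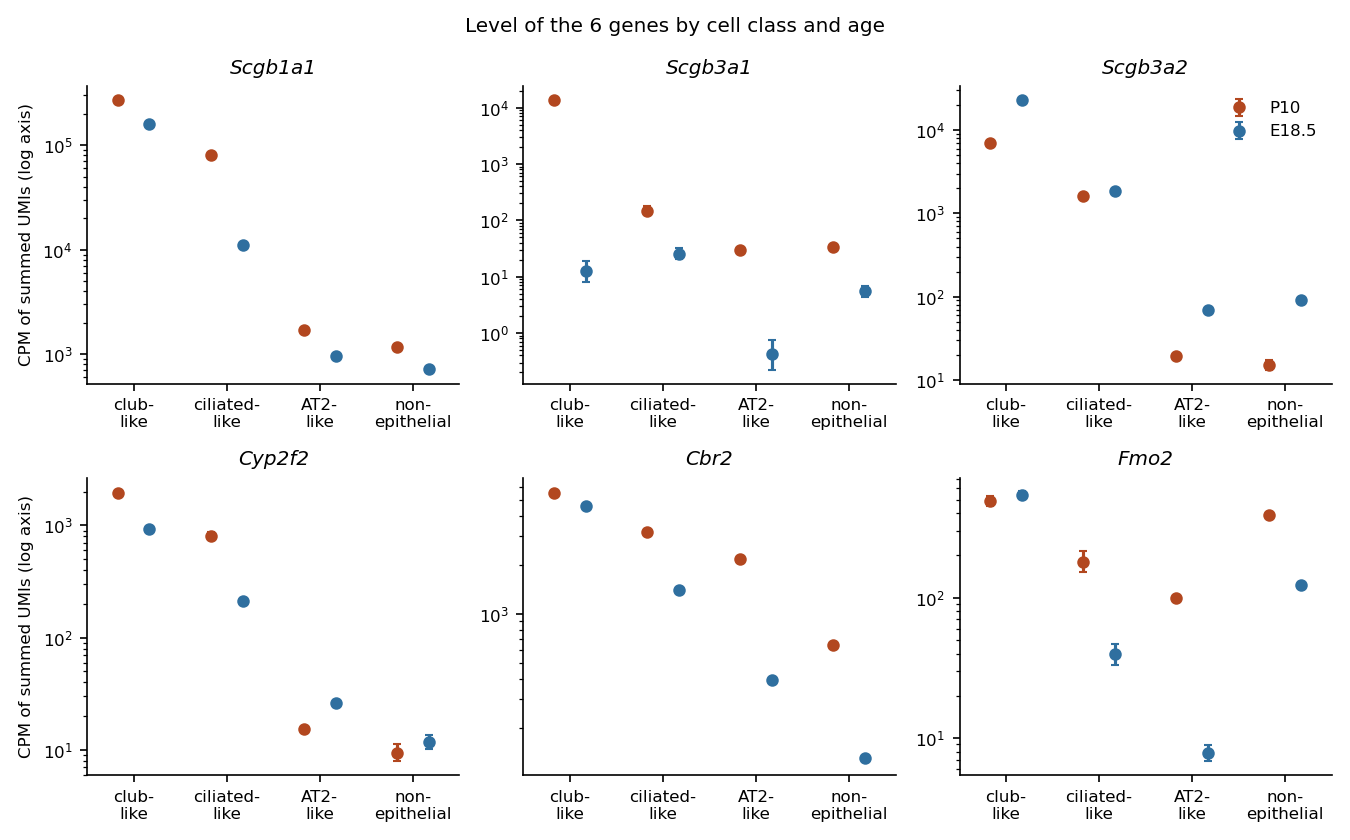
Level of each gene as CPM of summed UMIs (log axis, scale differs between panels) in 4 cell classes (x axis) of the P10 and E18.5 libraries. Bars are exact 95% Poisson intervals, often narrower than the point. Scgb1a1 and Cyp2f2 fall from club-like to non-epithelial cells at both ages, Cbr2 stays raised in AT2-like cells, and Fmo2 is high in non-epithelial cells.

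Scgb1a1 alone took up 27.3% of the UMIs of P10 club-like cells, 272627 CPM (271674 to 273582), and 157946 CPM (157372 to 158521) in E18.5 club-like cells. Non-epithelial cells stood at 1179.6 and 720.4 CPM, so club-like cells were 231-fold above them at P10 (interval 227 to 235) and 219-fold at E18.5 (215 to 223). Among single club-like cells the level ran between 1323.6 and 486952 CPM at P10 with a median of 280990, and between 1076 and 368544 CPM at E18.5 with a median of 153903. At least 100000 CPM was found in 29 of the 33 cells at P10 and in 123 of the 159 at E18.5. Under 10000 CPM were 3 cells at P10 and 2 at E18.5. Of the P10 club-like cells deep enough to be thinned, the 3 cells low in Scgb1a1 had 120785 CPM of Sftpc, against 39902 CPM in the other 28, a level near that of AT2-like cells.

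Outside club-like cells nearly every cell had some Scgb1a1. After thinning each cell to 3000 UMIs, a Scgb1a1 UMI was found in 97.2% of AT2-like and 96.9% of non-epithelial cells at P10, and in 87.2% and 82.3% at E18.5. In P10 non-epithelial cells the variance of the thinned count was 1.08 times its mean, close to what even sampling of a single low level gives. The level also varied little between the 12 non-epithelial clusters of P10, which lay between 1041 and 1386 CPM, across leukocytes, endothelium and mesenchyme alike. E18.5 was less even: the variance was 17.96 times the mean, the highest thinned cell had 201 Scgb1a1 UMIs, and the 10 non-epithelial clusters lay between 554 and 2034 CPM. Scgb1a1 of non-epithelial cells was taken as the background level at both ages, with these few rich E18.5 cells in it. AT2-like cells as a class were only 1.45-fold above it at P10 (1.43 to 1.47) and 1.33-fold at E18.5 (1.30 to 1.35), and their median cells stood at 1267 and 681 CPM against 1159 and 573 CPM in non-epithelial cells.

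**Figure D2:**
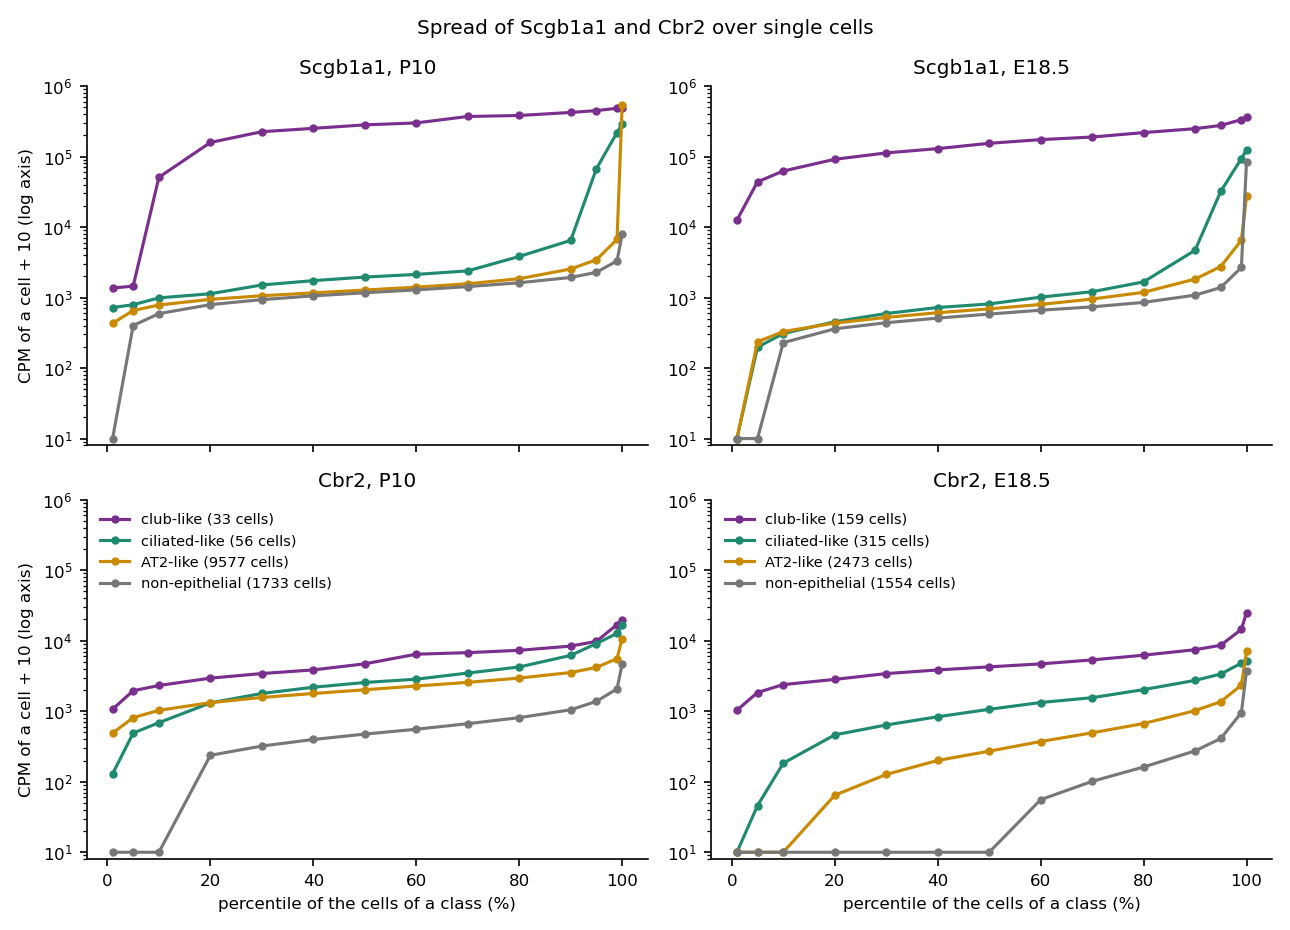
Percentiles of single cells (x axis) against the CPM of a cell plus 10 (log axis) for Scgb1a1 (top) and Cbr2 (bottom) at P10 (left) and E18.5 (right), by cell class. For Scgb1a1 the AT2-like and non-epithelial curves lie close in the middle and part at the upper end and at the lowest percentiles. For Cbr2 the AT2-like curve lies above the non-epithelial one at P10, and from percentile 20 on at E18.5, below which both are at 0.

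The AT2-like class nevertheless had an upper tail in Scgb1a1. Of thinned AT2-like cells, 659 of 9410 (exact binomial interval 6.50 to 7.54%) had 10 or more Scgb1a1 UMIs at P10 and 101 of 2422 (4.17%) at E18.5, against 12 of 1344 (0.893%, 0.462 to 1.55%) and 7 of 1288 (0.543%) non-epithelial cells. To ask what else these cells held, cells were grouped by their thinned UMIs and all levels were read in the UMIs left over, which had no part in the grouping. The 626 P10 cells with 10 to 29 Scgb1a1 UMIs had 3929 CPM of Scgb1a1 in the left-over UMIs, against 1344 CPM in the 8751 cells with 0 to 9. Their Scgb3a1 was 29.2 CPM against 29.6, their Cyp2f2 13.4 against 13.1 and their Cbr2 2133 against 2170, while Fmo2 was 123 CPM (114 to 133) against 96.4 CPM (94.2 to 98.5). Scgb3a2 was 27.4 CPM (23.1 to 32.4) against 17.3 CPM (16.4 to 18.2). The surfactant gene Sftpc was 152740 CPM against 148846 CPM, so these cells kept their alveolar RNA. The highest group, 33 cells with 30 or more Scgb1a1 UMIs, differed from them: Scgb1a1 stood at 51983 CPM, Scgb3a2 at 379 CPM and Cyp2f2 at 486 CPM, with Sftpc at 129968 CPM. At E18.5 the 91 AT2-like cells with 10 to 29 Scgb1a1 UMIs had 4162 CPM of Scgb1a1 and 207 CPM of Scgb3a2, against 779 and 59.9 CPM in cells with 0 to 9, while Cyp2f2 was 23.7 against 25.5 CPM. A slope was taken between the cells with 10 or more Scgb1a1 UMIs and those with 0 to 9. Each 100 CPM of added Scgb1a1 came with 5.10 CPM of Scgb3a1 in P10 club-like and -0.0149 CPM in P10 AT2-like cells. The P10 club-like slope had only 3 cells in the low group and does not describe most club-like cells. Of their 15758 Scgb3a1 UMIs, 15712 lay in 8 of the 33 cells. The other 25 had 60.4 CPM of Scgb3a1 beside 287634 CPM of Scgb1a1. For Scgb3a2 at E18.5 the slope was 14.8 CPM in club-like cells, which had only 1 cell in the low group, 14.97 CPM in ciliated-like and 5.15 CPM in AT2-like cells. Cells holding RNA of more than one cell were not removed, and their part in these tails was not tested.

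**Figure D3:**
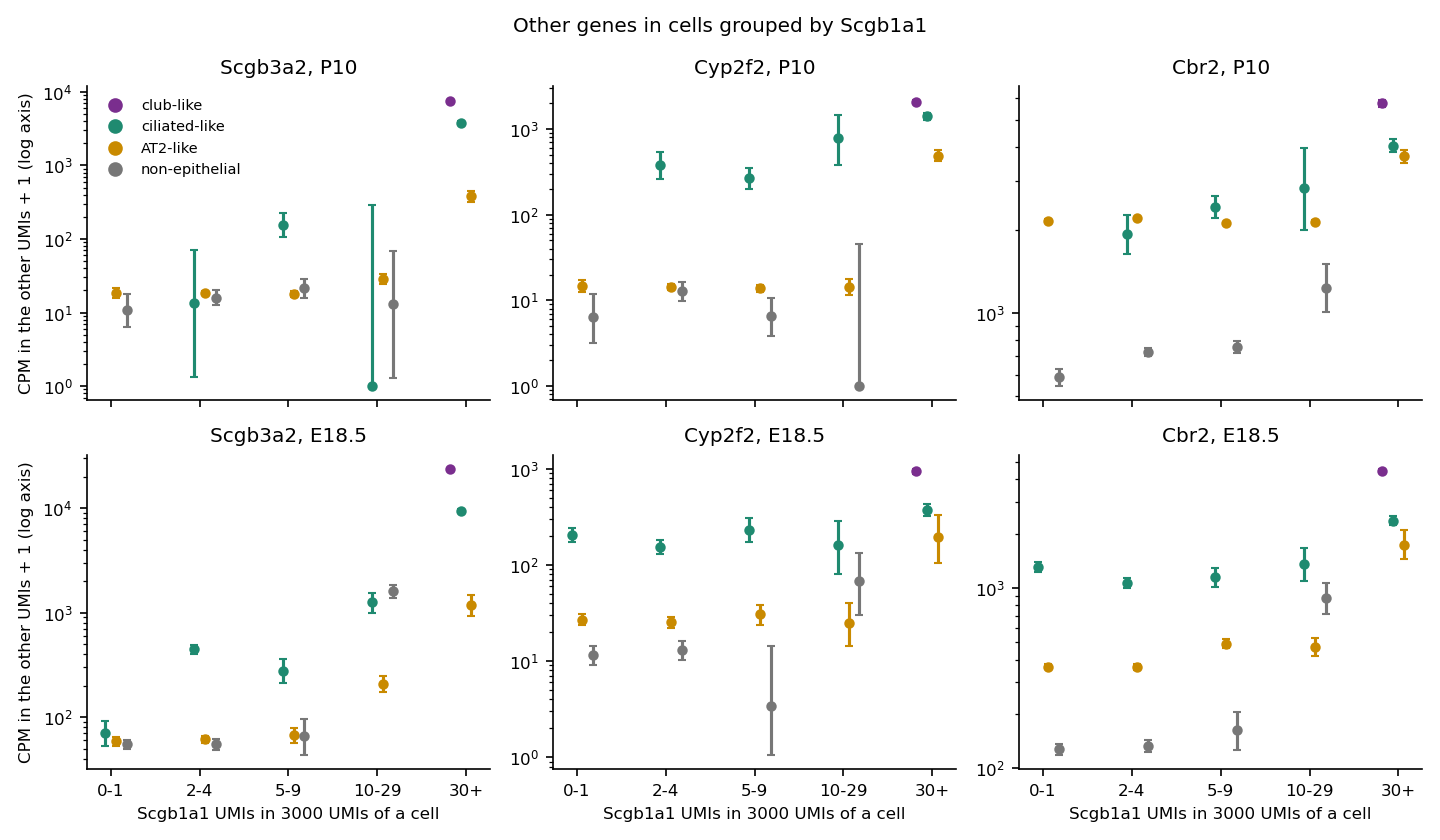
Cells grouped by the Scgb1a1 UMIs among 3000 of their UMIs (x axis) against the level of Scgb3a2, Cyp2f2 and Cbr2 in their other UMIs (CPM plus 1, log axis), by class, P10 above E18.5. Bars are exact 95% Poisson intervals and groups of fewer than 5 cells are left out. Cyp2f2 of ciliated-like cells and Cbr2 of ciliated-like and AT2-like cells lie above the non-epithelial points already in the groups lowest in Scgb1a1.

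In ciliated-like cells the class sum of Scgb1a1 was carried by few cells. It was 81039 CPM at P10, but 1 cell of 56 held 69.1% of those UMIs, and the median cell had 1941 CPM. At E18.5 the sum was 11194 CPM and the median cell had 801 CPM. Without cells at 10000 CPM of Scgb1a1 or more, the ratio of ciliated-like over non-epithelial cells was 1.54 at P10 and 1.60 at E18.5, and with all cells it was 68.7 and 15.5. Scgb3a2 stood at 1628 CPM in P10 ciliated-like cells and 1855 CPM in E18.5 ones, 107-fold and 20.2-fold over background, and at 5.70-fold and 5.20-fold without the cells rich in Scgb1a1. The E18.5 cells with 30 or more Scgb1a1 UMIs, 25 of 281 ciliated-like cells, held 62369 CPM of Scgb1a1 and 9433 CPM of Scgb3a2 in their left-over UMIs together with 247 CPM of Foxj1, against 406 CPM of Foxj1 in the cells with 0 to 9. A separate E18.5 cluster of 69 cells bore both club and ciliated markers and had 93355 CPM of Scgb1a1 at a median depth of 19478 UMIs, so it was kept out of both classes.

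Scgb3a1 was the secretoglobin that set the ages apart. Club-like cells had 15758 UMIs of it at P10, 13673 CPM (13460 to 13888), and 23 UMIs at E18.5, 12.5 CPM (7.92 to 18.7). At P10 24 of the 33 cells had a UMI (72.7%) and the median cell 55.2 CPM. At E18.5 9 of the 159 cells had one (5.66%), and 1 cell held 9 of the 23 UMIs. P10 club-like cells were 404-fold above the 33.8 CPM of non-epithelial cells, and E18.5 ones 2.28-fold above the 5.49 CPM there (1.38 to 3.63), or 1.42-fold as a mean over cells. That E18.5 level was mostly endothelial, with 66 of its 92 UMIs in endothelial-like cells, and against the 1 UMI of leukocytes the ratio was 75.9 (12.3 to 3125). AT2-like cells had 29.5 CPM at P10, 0.872-fold the background, and 12 UMIs or 0.428 CPM at E18.5. Both were read as background. In ciliated-like cells the 149 CPM of P10 and 25.7 CPM of E18.5 lay above background, yet 1 cell held 63.7% of the UMIs at P10 and 1 cell 82.4% at E18.5. Ciliated-like clusters with alveolar RNA, 34 cells at P10 and 64 at E18.5, were kept apart. At P10 these held 142096 CPM of Scgb1a1, with a median cell of 1806 CPM, and 4415 CPM of Scgb3a1, of which 1 cell held 99.5%. At E18.5 they held 13525 CPM of Scgb1a1 and 4 UMIs of Scgb3a1.

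The P10 level of Scgb3a1 came from a minority of the club-like cells. In 8 of the 33 cells it reached 1000 CPM or more, and the highest reached 103938 CPM. This line was drawn after the values were seen, so what follows describes these cells without a test. The 8 cells together had 40183 CPM of Scgb3a1 and the other 25 had 60.4 CPM. Scgb3a2 was 15506 against 2597 CPM, while Scgb1a1 was 243398 against 287634 CPM. Secreted defence and mucus products were high in the sum of these cells: Bpifb1 at 3005 against 10.5 CPM, Reg3g, an antibacterial lectin, at 2524 against 1.31 CPM, and Tff2, a trefoil peptide, at 2118 against 13.1 CPM. Muc5b, a gel-forming mucin, had 319 UMIs in the 8 cells, a UMI in every one, and 0 UMIs in the other 25. A UMI of Bpifb1 was found in 6 of the 8 cells and of Reg3g and Tff2 in 5 each. The sums rest on the 5 cells at 10000 CPM of Scgb3a1 or more, whose 5 secreted genes added up to between 2419 and 41788 CPM, against between 85.1 and 564 CPM in the 3 cells nearer the line. The enzymes did not share this split in the same way: Cyp2f2 was 1967 against 1930 CPM, Cbr2 3985 against 6312 CPM and Fmo2 292 against 594 CPM. Of these genes Bpifa1, Reg3g, Tff2 and Muc5b were markers used to name the class. The 8 cells were deeper, with a median of 48337 UMIs against 30221, and had 37807 CPM of Sftpc against 48869 CPM, and the part of depth was not tested. At E18.5 none of the 159 club-like cells reached 1000 CPM of Scgb3a1.

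**Figure D4:**
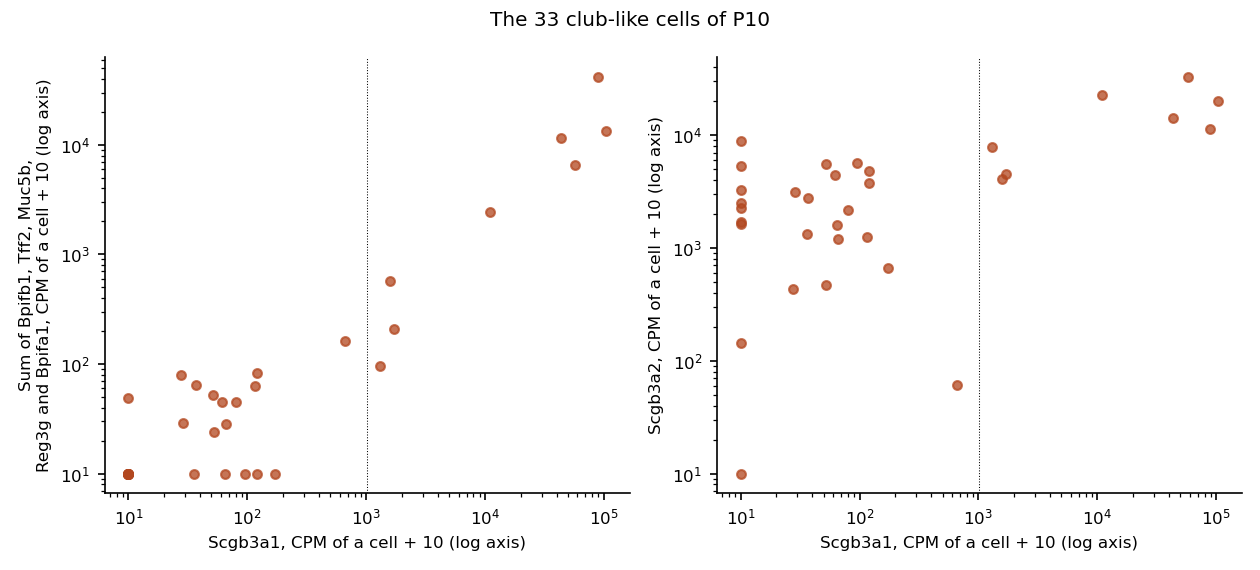
The 33 P10 club-like cells by their CPM of Scgb3a1 plus 10 (x axis, log) against the summed CPM of Bpifb1, Tff2, Muc5b, Reg3g and Bpifa1 plus 10 (left) and of Scgb3a2 plus 10 (right), both on log axes. The dotted line marks 1000 CPM of Scgb3a1. Of the 8 cells to its right, the 5 with the most Scgb3a1 lie between 2419 and 41788 CPM on the left panel and the other 3 between 85.1 and 564 CPM.

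Scgb3a2 was the secretoglobin with the higher fetal level. Club-like cells had 6977 CPM (6825 to 7131) at P10 and 23104 CPM (22885 to 23325) at E18.5, 459-fold and 252-fold over the 15.2 and 91.7 CPM of non-epithelial cells. A UMI was found in 97.0% of club-like cells at P10 and 99.4% at E18.5, and the median cell had 3131 and 17176 CPM. AT2-like cells had 19.6 CPM at P10 and 69.4 CPM at E18.5, 1.29-fold and 0.756-fold the background. After thinning, 5.39% of AT2-like and 4.91% of non-epithelial cells had a Scgb3a2 UMI at P10, and 17.1% and 14.8% at E18.5, so the AT2-like level was read as background. At E18.5 a single non-epithelial cell held 22.8% of the background UMIs. Among the 3 secretoglobins, Scgb3a2 made up 2.38% of the UMIs in P10 club-like and 1.24% in P10 non-epithelial cells, and 12.8% and 11.2% at E18.5. The share of Scgb3a2 was thus higher at E18.5 in both classes.

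Cyp2f2 marked club-like cells and, at a lower level, ciliated-like cells. Club-like cells had 1943 CPM (1863 to 2025) at P10 and 931 CPM (887 to 976) at E18.5, against 9.47 and 11.7 CPM in non-epithelial cells, ratios of 205 (171 to 248) and 79.2 (68.3 to 92.3). Ciliated-like cells had 812 CPM at P10 and 211 CPM at E18.5, 85.8-fold and 17.96-fold over background. The cell richest in Cyp2f2 held 56.3% of the P10 UMIs, and without cells at 10000 CPM of Scgb1a1 or more the P10 ratio was 42.3. Unlike Scgb1a1, this level held in the cells poor in Scgb1a1: the 27 P10 ciliated-like cells with 0 to 9 Scgb1a1 UMIs had 301 CPM of Cyp2f2 (242 to 371) and the 247 E18.5 ones 182 CPM, against 9.03 and 10.9 CPM in the non-epithelial cells so grouped. Even the 86 E18.5 ciliated-like cells with 0 or 1 Scgb1a1 UMI had 204 CPM, against 10.5 CPM in the matching non-epithelial cells. In AT2-like cells Cyp2f2 was low. It stood at 15.4 CPM at P10, 1.63-fold the background (1.35 to 1.97), and at 26.1 CPM at E18.5, 2.22-fold (1.89 to 2.61) and 2.78-fold the leukocyte level there (2.12 to 3.70). Thinned shares of cells with a UMI were 3.94% against 3.35% at P10 and 7.43% against 2.87% at E18.5. The E18.5 AT2-like level was between 23.7 and 29.5 CPM in every group of cells with under 30 Scgb1a1 UMIs. With all non-epithelial clusters as background the ratios were 0.723 at P10 and 1.81 at E18.5.

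Cbr2 was the one gene of the 6 whose level in AT2-like cells stood clear of background at both ages. Club-like cells had the most, 5523 CPM (5388 to 5660) at P10 and 4582 CPM (4485 to 4681) at E18.5. Ciliated-like cells had 3179.6 and 1393 CPM, AT2-like cells 2178 and 392 CPM, and non-epithelial cells 643 and 129.7 CPM. AT2-like cells were 3.39-fold over background at P10 (3.31 to 3.46) and 3.02-fold at E18.5 (2.89 to 3.17). This did not hold for all alveolar cells. The 3760 AT1-like cells of E18.5 had 59.1 CPM, 0.455-fold the background (0.425 to 0.488). The 5 AT2-like clusters of P10 lay between 2084 and 2278 CPM, above all 12 non-epithelial clusters, which lay between 451 and 873 CPM. The 2 AT2-like clusters of E18.5, at 365 and 402 CPM, lay above the 10 non-epithelial clusters, the highest of which had 295 CPM. The median AT2-like cell had 2005 CPM at P10 and 261 CPM at E18.5, against 464 and 0 CPM. Against all non-epithelial clusters, those with more alveolar RNA included, the P10 ratio was 1.94. A second view set Cbr2 against the most abundant alveolar RNA: per 1000 UMIs of Sftpc there were 14.6 UMIs of Cbr2 in P10 AT2-like and 18.4 in P10 non-epithelial cells, and 122 in club-like cells. At E18.5 there were 2.97 in AT2-like and 4.52 in non-epithelial cells. For Scgb1a1 the same measure was 11.5 in AT2-like and 33.8 in non-epithelial cells of P10, and 7.24 and 25.1 at E18.5. In ciliated-like cells Cbr2, like Cyp2f2, held in the cells with 0 to 9 Scgb1a1 UMIs, at 2245 CPM at P10 and 1170 CPM at E18.5, against 710 and 129.8 CPM in non-epithelial cells.

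Fmo2 was not a gene of the airway alone. Club-like cells had 491 CPM (451 to 533) at P10 and 541 CPM (507 to 575) at E18.5, against 388 and 124 CPM in non-epithelial cells, ratios of 1.27 (1.16 to 1.38) and 4.38 (4.05 to 4.72). With gates on single cells the E18.5 ratio was 1.24. The non-epithelial level was highest in mesenchyme. At P10 it was 1183 CPM in pericyte or smooth muscle-like and 1156 CPM in mesothelial-like cells. The 124 fibroblast-like cells of P10 had 1785 CPM, but held more alveolar RNA and were not part of the background. At E18.5 the level was 474 CPM in fibroblast-like but 20.3 CPM in pericyte or smooth muscle-like cells. There the fibroblast-like cells were part of the background and gave 1816 of its 2072 Fmo2 UMIs. The ratios of 1.27 and 4.38 thus rest on backgrounds of different make-up. Leukocytes of the clusters low in alveolar RNA had 33.7 CPM at P10 and 13.0 CPM at E18.5. Set against leukocytes, a comparison added after the data were seen, Fmo2 was 14.6-fold higher in P10 club-like and 41.5-fold higher in E18.5 club-like cells. AT2-like cells had 98.7 CPM at P10, 2.92-fold the leukocyte level, and 7.81 CPM at E18.5, 0.600-fold. A Fmo2 UMI was seen in 84.8% of club-like cells at P10 and 86.8% at E18.5, at median depths of 35398 and 10906 UMIs, whereas at 3000 UMIs per cell the shares were 54.8% and 66.7%, next to 25.9% and 22.4% in non-epithelial cells. In ciliated-like cells with 0 to 9 Scgb1a1 UMIs Fmo2 was 51.3 CPM at P10 and 6.51 CPM at E18.5, against 426 and 83.9 CPM in non-epithelial cells.

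**Figure D5:**
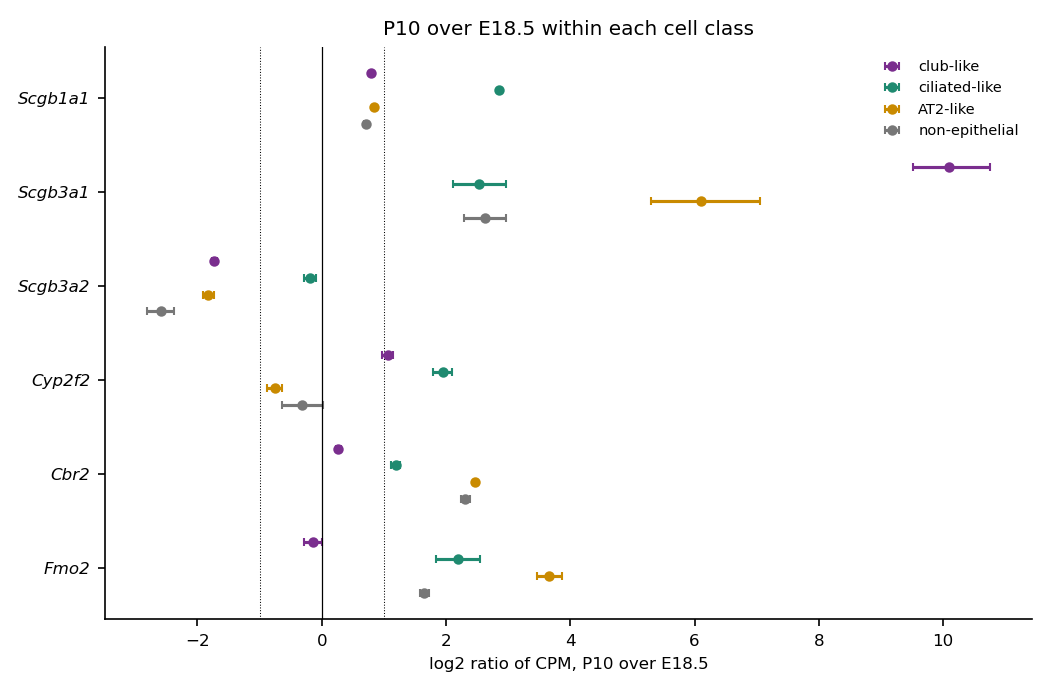
Log2 ratio of CPM, P10 over E18.5 (x axis), for each of the 6 genes (rows) within club-like, ciliated-like, AT2-like and non-epithelial cells, with bars for 95% intervals of counting error. Scgb3a1 lies right of 0 in all 4 classes and Scgb3a2 left of 0 in club-like, AT2-like and non-epithelial cells, and Cbr2 lies further right in AT2-like and non-epithelial cells than in club-like cells.

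Set side by side between ages, club-like cells differed most in their secretoglobin mix and little in Cbr2 and Fmo2. Scgb3a1 was 1094-fold higher at P10 (729 to 1727, log2 ratio 10.10), and log2 ratios of 8.84 and 8.62 were found when the 6 genes took part in the clustering and when classes came from gates on single cells. Scgb3a2 was 3.31-fold lower at P10 (3.23 to 3.39, log2 ratio -1.73), with -2.70 when the 6 genes took part in the clustering. Scgb1a1 was 1.73-fold higher at P10 (1.72 to 1.73) and Cyp2f2 2.09-fold (1.96 to 2.22), Cbr2 was 1.21-fold higher (1.17 to 1.25), and Fmo2 was at 0.909 of its E18.5 level (0.818 to 1.01). Past 2-fold, 2 of the 6 genes were higher at P10, where 14.7% of measured genes were, and 1 was lower, where 16.4% were. The Cyp2f2 ratio lay close to the 2-fold line and missed it under several alternatives.

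In AT2-like and non-epithelial cells the ratios between ages were close for Scgb1a1 and Cbr2 and further apart for Scgb3a1, Scgb3a2 and Fmo2. Scgb1a1 was 1.79-fold higher at P10 in AT2-like cells and 1.64-fold in non-epithelial cells, near its ratio in club-like cells, but with gates on single cells its log2 ratio in AT2-like cells was -0.06, against 0.84 by clusters. Cbr2 was 5.55-fold higher at P10 in AT2-like cells (5.45 to 5.66) and 4.96-fold in non-epithelial cells, unlike the 1.21-fold of club-like cells. Scgb3a2 was lower at P10 in both, 3.55-fold in AT2-like and 6.04-fold in non-epithelial cells. Cyp2f2 was at 0.591 of its E18.5 level in AT2-like cells (0.542 to 0.645) and at 0.806 in non-epithelial cells (0.639 to 1.01). In club-like cells, by contrast, Cyp2f2 was 2.09-fold higher at P10. Fmo2 was 12.6-fold higher at P10 in AT2-like and 3.14-fold in non-epithelial cells, and Scgb3a1 69.0-fold and 6.17-fold, on 12 UMIs of E18.5 AT2-like cells. The non-epithelial class was a different mix of cells at each age, and the part of this mix in its ratios was not tested. Within single types Fmo2 was 1785 CPM at P10 against 474 CPM at E18.5 in fibroblast-like cells. It was 1183 against 20.3 CPM in pericyte or smooth muscle-like cells and 33.7 against 13.0 CPM in leukocytes. Past 2-fold, AT2-like cells had 3 genes higher and 1 lower at P10, where 15.5% and 10.4% of measured genes were, non-epithelial cells 3 and 1, where 17.8% and 8.07% were, and ciliated-like cells 5 and 0, where 10.5% and 12.3% were. The ciliated-like ratios turn on few deep cells. Without cells at 10000 CPM of Scgb1a1 or more the log2 ratio of Scgb1a1 was 0.81, against 2.86 with them, and without the 5% deepest cells -2.32. Over all measured genes the median log2 ratio was -0.05 in club-like, -0.09 in ciliated-like, 0.20 in AT2-like and 0.26 in non-epithelial cells.

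Against background, ciliated-like cells counted 5 of the 6 genes at 2-fold or more at both ages, where 18.2% of measured genes were raised at P10 and 22.7% at E18.5. The count includes Scgb1a1, which was under 2-fold at both ages without cells at 10000 CPM of Scgb1a1 or more. It also includes Scgb3a1, with most UMIs in a single cell at each age and under 2-fold with gates on single cells. AT2-like cells counted 1 at P10, Cbr2, where 7.71% of genes were raised, and 2 at E18.5, Cbr2 and Cyp2f2, where 4.66% were.

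Other genes of the same pathways were read in the club-like sums of both ages, where 5.22% of all measured genes were raised over background at P10 and 4.97% at E18.5. Of 31 other secretoglobin genes only Scgb1c1 reached 10 CPM, with 80.7 CPM at P10 and 14.1 CPM at E18.5. It was not particular to club-like cells, as AT2-like cells had 71.3 CPM at P10 and 29.4 CPM at E18.5. Of 8 measured cytochrome P450 and electron-donor genes at P10, 5 were raised over background, and of 6 at E18.5, 3 were. Cyb5a, a cytochrome b5, had 613 CPM at P10 and 733 CPM at E18.5, and Por, the reductase that feeds electrons to P450 enzymes, 368 and 189 CPM. Between ages 2 of 7 were higher at P10, Cyp4b1 with 124 against 4.35 CPM and Cyp2b10 with 57.3 CPM against 0 UMIs. Lower was 1, Cyp2s1, with 12.1 against 32.6 CPM, a gene named after its values were seen. Among all measured genes 14.7% were higher at P10 and 16.4% lower. P10 AT2-like cells had 55.9 CPM of Cyp2b10, near the level of P10 club-like cells. Fmo1, a flavin mono-oxygenase, had 19.96 CPM at P10 and 40.2 CPM at E18.5, against 120 and 31.4 CPM in non-epithelial cells. Of the carbonyl, aldehyde and aldo-keto enzymes 8 of 14 were raised over background at P10 and 7 of 15 at E18.5. Club markers used to name the class made up 2 genes of this list, Aldh1a1 among them. They also made up 2 genes of the P450 list, Cyp4b1 among them, so these counts are partly set by the naming. Aldh1a1, a retinaldehyde dehydrogenase, was 8.47-fold higher at P10 (7.17 to 10.1), with 764 against 90.2 CPM, while Dcxr had 511 and 806 CPM and Aldh2 476 and 449 CPM. Conjugating and hydrolysing enzymes were raised in 10 of 15 at P10 and 12 of 15 at E18.5. The glutathione transferase Mgst1 was lower at P10, 955 against 2409 CPM, and Ces1d, a carboxylesterase, had 415 and 596 CPM.

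In the club-like sums, secreted airway products were mostly higher at P10. Of 19 measured, 14 were at least 2-fold higher at P10, where 14.7% of all measured genes were, and 0 lower, where 16.4% were, with a median log2 ratio of 3.55, against -0.05 over all genes. The most abundant of the 14 were Sftpa1, with 6769 CPM at P10 against 564 CPM at E18.5, and Lyz2, with 5221 against 514 CPM. Both are alveolar or macrophage products and stood near their background at P10, where non-epithelial cells had 4394 CPM of Sftpa1 and 5029 CPM of Lyz2. Wfdc2 and Hp, airway secreted proteins, had 4964 and 3197 CPM at P10 against 5957 and 3887 CPM at E18.5. Other genes of the list owed their P10 sums to few cells. In the 8 club-like cells at 1000 CPM of Scgb3a1 or more, Bpifb1, Tff2, Muc5b, Reg3g and Bpifa1 had 1175, 828, 319, 987 and 738 UMIs. The other 25 club-like cells of P10 had 8, 10, 0, 1 and 4 UMIs of them. Of this list 7 genes were club markers. Airway transcription factors were raised over background in 8 of 14 at P10 and 3 of 14 at E18.5, next to 5.22% and 4.97% of all measured genes. Between ages 1 was higher at P10, Ehf, with 115 against 52.7 CPM, and 2 lower, Cebpb with 98.05 against 208 CPM and Elf3 with 51.2 against 112 CPM, where Ehf and Elf3 were named after their values were seen. These shares of the list were below the 14.7% higher and 16.4% lower among all measured genes. Of the transcription factors 1 was a club marker. Median log2 ratios over background at P10 were 1.38 for the P450 list, 1.18 for the carbonyl list, 2.19 for the conjugating enzymes, 2.48 for the secreted products and 1.07 for the transcription factors, against -0.81 over all genes.

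Across the 69 clusters of both libraries, which share depth and background within a library, the genes most like the mean of the 6 on log2(CPM + 10) were B430010I23Rik (Pearson r 0.893), Lpar3 (0.892), Gabrp (0.880), Lrrc26 (0.872), Cxcl17 (0.860) and Lypd2 (0.853), of which Gabrp and Lypd2 were club markers. Among the 6, Scgb1a1 and Cyp2f2 ran closest, at 0.938, and Scgb3a1 and Scgb3a2 least, at 0.151. Scgb3a1 was most like Bpifb1 (0.920) and Muc5b (0.867), Cbr2 most like Wfdc2 (0.953) and Fmo2 most like Bmp3 (0.833). These coefficients describe the clusters and carry no test.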

How the data were processed

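Droplet-based 3' single-cell RNA sequencing was done on 2 libraries. The authors deposited unnormalised UMI counts for every gene and barcode. Per the file headers they came from Cell Ranger 7.0.1. The submitters' processing notes name mm10 and Seurat 4.0.0, the role of the second not being given. Whether introns were counted, which no source used here gives, could alter the levels of long genes.

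From these counts, cells with 500 or more genes, 1000 or more UMIs and 20% or less mitochondrial UMIs were kept (417 barcodes left out at P10, 712 at E18.5). Each library was clustered alone (scanpy 1.11.5, leidenalg 0.10.2, Python 3.11.15; 2000 variable genes without the 6 genes, 30 components, 15 neighbours, resolution 1). Airway cells were re-clustered with 15 components and 10 neighbours. A cluster was named "-like" only when 3 or more markers, and at least 30% of a list, were found in 25% or more of its cells and at 3 or more times the low level over clusters. That rule was set after the clusters were seen. Doublets were not called. The members, lists and comparisons were chosen with earlier results of these data known.

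CPM is the summed count of a gene relative to all UMIs of its class, on the usual scale. Exact Poisson and binomial (Clopper-Pearson) intervals at 95% cover counting error only. Genes under 10 CPM in both sums compared were left out, and 2-fold was the line. With 1 library per age no p-value was computed. Thinning drew 3000 UMIs per cell, and shallower cells were left out. Named genes were the 6 members, up to 4 per list by level, the 6 most alike over clusters, and class checks. Count and ratio steps were tested on simulated data. Alternatives were other clusterings, filters, scalings, backgrounds, thresholds and gates on single cells. 1 gene of the lists is not reported here.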

Additional observations from a re-analysis of the deposited data

How the results depend on the processing

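Single values and ratios stayed the same in 691 of the alternatives run, moved in 364 and changed side in 7. A level counted as the same within its interval of counting error. A ratio counted as the same within 1.5 times its main value and on the same side of the 2-fold line. Counts of genes stayed within 1.5 times in 133 and moved in 18. Genes above background in AT2-like cells of E18.5 were 2, against 1 with all non-epithelial clusters as background, 1 at 3-fold and 4 with gates on single cells. In AT2-like cells of P10 they were 1, against 0 with all non-epithelial clusters as background (Cbr2 at 1.94-fold), 2 with gates and 2 with leukocytes alone. In ciliated-like cells of P10 they were 5, against 3 without the 5% deepest cells. Genes lower at P10 were 1 in AT2-like cells, against 2 with gates, and 0 in ciliated-like cells, against 2 without the deepest cells and 1 each at resolution 2, as mean over cells, with gates and without cells at 10000 CPM of Scgb1a1. Genes higher at P10 were 5 in ciliated-like cells, against 3 without the deepest cells, and 2 in club-like cells, against 1 each with the 6 genes kept in the clustering, as mean over cells, at 3-fold and with gates. For these the cause was not tested, except that a stricter threshold calls fewer genes.

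Values that changed side were the Scgb1a1 log2 ratio between ages in ciliated-like cells, -2.32 without the deepest cells, the Fmo2 log2 ratio in non-epithelial cells, -0.094 with gates, and the Scgb3a1 ratio over background in ciliated-like cells with gates, 0.918 at P10 and 0 at E18.5. The Fmo2 ratio over leukocytes was 2.92 in AT2-like cells of P10, 5.36 in ciliated-like cells of P10 and 3.04 in those of E18.5. Leukocytes alone as background, cells without high Scgb1a1 and scaling without the 6 genes were chosen after seeing the data. Without the 5% deepest cells no club-like cluster was named at P10, so it has no value there. Median-of-ratios scaling moved log2 ratios between ages by 0.17 in AT2-like, 0.18 in non-epithelial, -0.11 in ciliated-like and -0.07 in club-like cells. No paired analysis was possible because each age has 1 library. The 33 club-like cells of P10, unremoved doublets and unequal depth limit what the levels can show.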

Other observations

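Scgb3a1 at E18.5 was found outside the airway in few cells. Endothelial-like cells had 66 UMIs, 17.4 CPM, in 33 of 326 cells, against 1 UMI in 465 leukocytes of clusters low in alveolar RNA. Pericyte or smooth muscle-like cells had 20 UMIs in 5 of 229 cells. At 1000 CPM or more of Scgb3a1 were 15 cells at P10, of which 8 were club-like, and 6 cells at E18.5, of which 0 were club-like. Scgb1a1 stood at 16272 CPM in the 21 neuroendocrine-like cells of E18.5, of which 6 had 10000 CPM or more and 2 had 50000 CPM or more. Each of the 21 had at least 1 UMI, at a median depth of 15781 UMIs and a background of 720 CPM. A UMI in each cell therefore does not part their own level from background.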
